A study of Mus musculus with 20 samples.

Results

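Chemokine ligand genes were examined in Gpr35+/+ and Gpr35-/- mice, in ileum and in macrophages cultured from bone marrow. The genes were all rows of the deposited expression tables whose name was CCL, CXCL, CX3CL or XCL followed by a digit. This rule found 38 genes, out of 23334 gene rows of the ileum table and 23361 rows of the macrophage table. The series held 20 libraries of poly(A) RNA from untreated mice, with 5 Gpr35+/+ and 5 Gpr35-/- libraries of ileum and the same numbers of macrophages. Gpr35-/- mice carried a global deletion from the knockout mouse project and came from heterozygous breeding, with Gpr35+/+ littermates as controls, matched for age (6 to 12 weeks) and gender. The deletion was therefore present in every cell of the ileum samples and in the cultured macrophages. Marker sums describe the samples here and do not measure the share of each cell type. Epithelial markers summed to 27514 to 52071 FPKM in the ileum samples, with Fabp6 alone at a mean of 21235 FPKM. B cell markers summed to 25.6 to 105.7 FPKM there and stroma markers to only 2.12 to 31.0 FPKM. How much of the gut wall was sampled is not given. Values were FPKM, sequenced fragments scaled to the length of the transcript and the depth of the library, so that levels could be compared between genes within a table.

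Chemokines are small secreted or membrane-tethered proteins that steer leukocytes through G protein-coupled receptors. In the small intestine, Ccl25 made by enterocytes draws lymphocytes that carry Ccr9, while Cxcl13 and Ccl19 organise B and T cell areas of lymphoid follicles. In macrophages, Ccl2, Ccl3, Ccl4, Ccl5 and Ccl7 are inflammatory ligands for monocytes and T cells, and Ccl6 and Ccl9 are ligands made by resting myeloid cells of rodents. GPR35 is itself a G protein-coupled receptor, and CXCL17, a mucosal chemokine, has been proposed as one of its ligands.

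Gpr35 was low in all libraries labelled Gpr35-/-. Gpr35+/+ ileum measured 2.49, 2.83, 2.95, 2.8 and 3.85 FPKM, and no Gpr35-/- ileum exceeded 0.0408 FPKM. In macrophages it measured between 2.51 and 3.32 FPKM in Gpr35+/+ and between 0.0952 and 0.132 FPKM in Gpr35-/-. Read totals were not given with the FPKM values. The FPKM that 1 read was worth gave relative depths of 1 to 1.86 for Gpr35+/+ and 1.57 to 2.52 for Gpr35-/- ileum, and of 0.813 to 1 and 0.782 to 1.02 for macrophages. Macrophage markers summed to at least 3624 FPKM in every macrophage library, although Lyz2 was listed at 0 in all 10. Intestinal epithelium markers were also present there, summing to 60.6 to 209.5 FPKM in Gpr35+/+ cultures, and to 141.6, 1.53, 0.977, 1.07 and 71.3 FPKM in Gpr35-/- libraries 1 to 5. Gpr35-/- macrophage libraries 2, 3 and 4 thus stood apart from the other 7 libraries.

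Cxcl17, the proposed GPR35 ligand, was listed at 0 FPKM in all 10 ileum and all 10 macrophage libraries. The gene is protein coding and lies on chromosome 7 from 25400053 to 25412886 (minus strand, GRCm38). With no value above 0 in either genotype, the genotypes could not be compared for this gene. The value is a listing and not a limit of detection, since Eef1a1, a translation factor of all cells, was listed at 0 in each of the 5 Gpr35+/+ macrophage libraries, whereas the 5 Gpr35-/- ones held 3725 to 3834 FPKM. Ccl21b, Ccl21c, Ccl26 and Ccl27b were likewise listed at 0 in all 20 libraries. Ccl21b and Ccl21c are near-identical to Ccl21a, and Ccl27b to Ccl27a, so that reads of these copies may have been assigned to any of them.

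The chemokine ligand repertoires of the ileum and of the macrophages were led by different genes. The tables were scaled separately, so levels were ordered within each tissue and not tested between them. Of the 38 genes, 19 in ileum and 15 in macrophages reached 0.5 FPKM in at least 5 libraries and were tested for genotype. Of these, 11 genes were tested in both, 8 only in ileum, 4 only in macrophages, and 15 in neither.

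**Figure D1:**
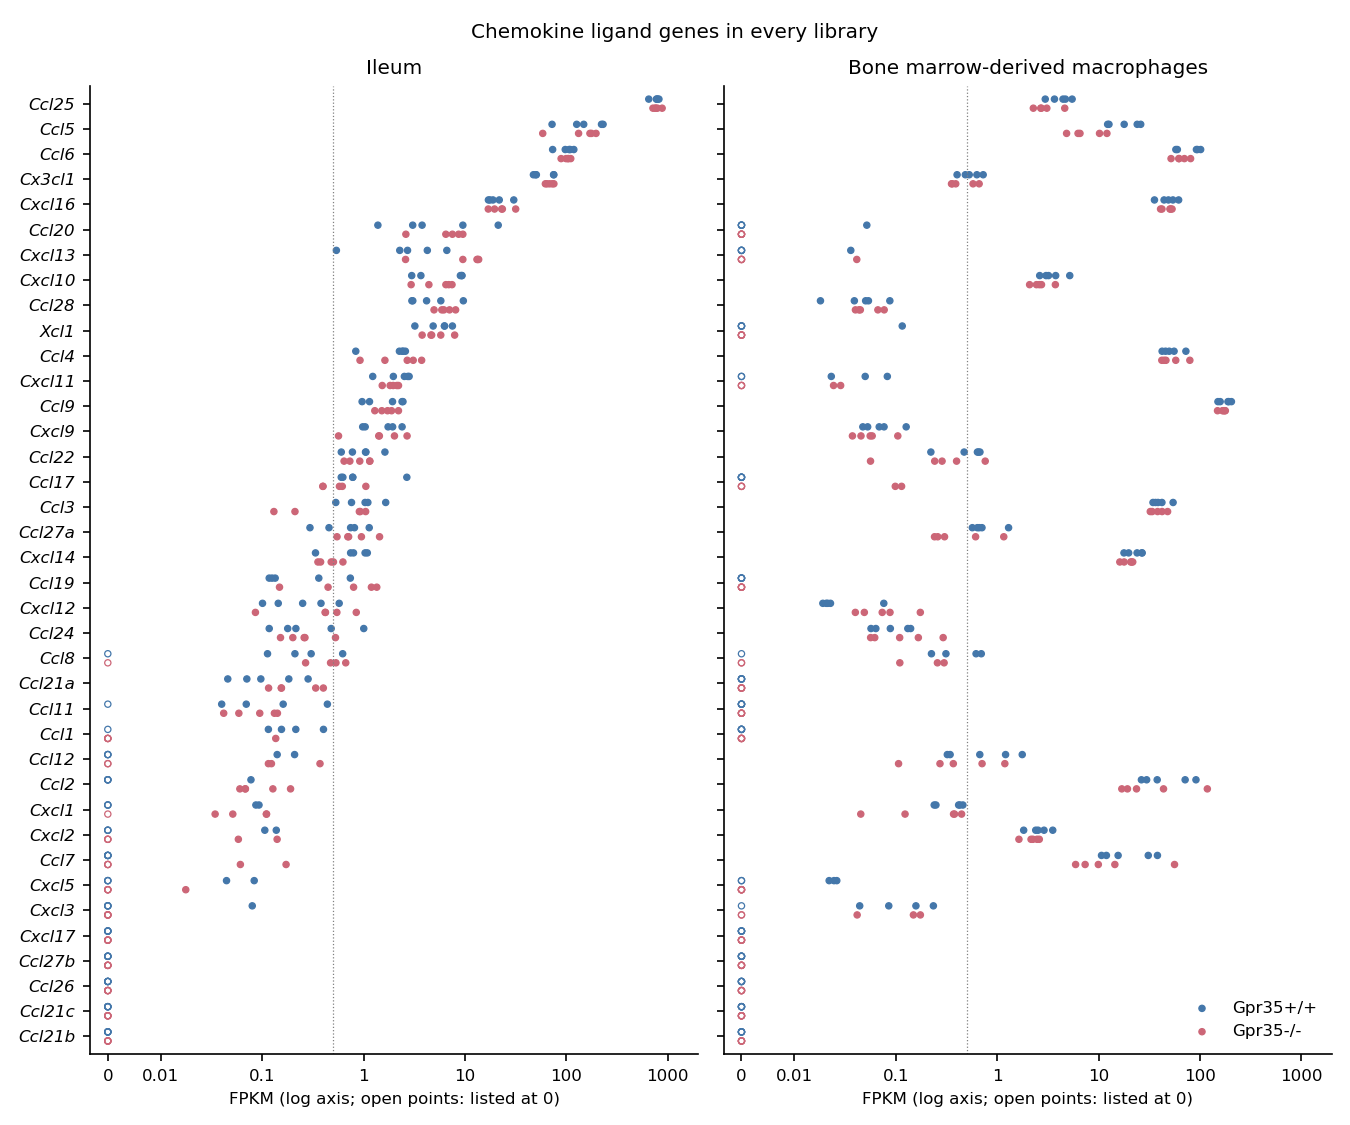
FPKM of the 38 chemokine ligand genes (log axis) in each library of ileum (left) and macrophages (right), with Gpr35+/+ libraries in blue, Gpr35-/- libraries in red, open points for values listed at 0 and a dotted line at 0.5 FPKM. Ccl25 led the ileum and Ccl9 the macrophages, and the 5 genes at the bottom were listed at 0 in all 20 libraries.

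In the ileum, Ccl25 exceeded every other ligand. It measured 771, 649, 795, 817 and 781 FPKM in Gpr35+/+ and 790, 879, 753, 761 and 714 FPKM in Gpr35-/- libraries, and took 58.3% to 74.9% of the FPKM summed over the 38 genes. Group means were 763 ± 65.9 and 779 ± 62.1 FPKM (SD, n = 5 each) for Gpr35+/+ and Gpr35-/-, placing it 105th of 23334 rows. The genotypes overlapped throughout, and the log2 change was 0.03 (SE 0.10).

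Ccl5, a ligand of T and NK cells, came next in the ileum with 58.4 to 229.9 FPKM over the 10 libraries. Ccl6 ranged from 73.1 to 118 FPKM, and its means of 101 ± 17.2 and 101 ± 8.12 FPKM (SD, n = 5 each) were nearly equal. Cx3cl1, the membrane-tethered fractalkine of epithelium and endothelium, ranged from 47.3 to 75.2 FPKM. Ccl5 and Ccl6 overlapped in their levels, as did Ccl6 and Cx3cl1, so that only the first place of the order stood clear of the spread between libraries. Cxcl16, the tethered ligand of Cxcr6, followed with 17 to 31.6 FPKM and did not overlap with Cx3cl1.

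The remaining ileum ligands reached at most 21.3 FPKM. Ccl20, which attracts Ccr6+ B cells and dendritic cells to follicle-associated epithelium, spread from 1.38 to 21.3 FPKM within the Gpr35+/+ group. Ccl28, a mucosal ligand for IgA-producing cells, lay between 2.99 and 9.62 FPKM, and Cxcl10, an interferon-inducible ligand of Cxcr3, between 2.94 and 9.31 FPKM. Xcl1, made by activated T and NK cells, lay between 3.2 and 7.9 FPKM. Cxcl13 reached 13.6 FPKM, and the other 9 tested ligands had mean levels under 3 FPKM.

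In macrophages, Ccl9 led with 158, 192, 150, 204 and 188 FPKM in Gpr35+/+ and 149, 166, 177, 170 and 175 FPKM in Gpr35-/- libraries. It took 27.8% to 40.0% of the FPKM summed over the 38 genes and ranked 465th of 23361 rows. Ccl6, its neighbour in the genome, ranged from 51.7 to 101 FPKM. The groups overlapped for both genes, with log2 changes of -0.08 (SE 0.09) for Ccl9 and -0.28 (SE 0.18) for Ccl6.

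Ccl4 and Ccl3, ligands for monocytes and T cells, ranged from 41.9 to 79.3 and from 32.3 to 54.2 FPKM in macrophages. Cxcl16 lay between 35.5 and 61.4 FPKM and Cxcl14, a constitutive ligand of many tissues, between 16.2 and 26.8 FPKM. Ccl2 and Ccl7, both ligands of the monocyte receptor Ccr2, were the most variable of the leading genes, with 16.9 to 117.9 and 5.92 to 56.0 FPKM. Ranges of Ccl6, Ccl4, Cxcl16, Ccl2 and Ccl3 overlapped, so their order was not resolved. Pf4, a platelet and macrophage chemokine that the naming rule did not take in, reached 126 to 171 FPKM in the same libraries, close to Ccl9.

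Ratios of 2 ligands within a library, which do not depend on library scaling, differed between the tissues without overlap for the 5 ratios computed. Ccl9 over Ccl6 was 0.0108 to 0.0219 in ileum and 1.86 to 2.87 in macrophages, although the genes lie only 9246 bases apart. Ccl25 over Cxcl16 was 26.3 to 46.6 in ileum and 0.0443 to 0.110 in macrophages. Ccl4 over Ccl5 was 0.00981 to 0.0191 and 1.63 to 11.9 in the same order. These ratios were chosen after the levels were seen and were not tested.

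Promoters of 3 genes are shown because Ccl6 and Ccl9 are neighbours that varied together, and Cxcl10 carried motifs of both families searched. The mouse RefSeq promoter table (GRCm38.p6) held 26 of the 38 genes, with 300 bases for each start, from 250 before to 50 after it. NF-kB sites were searched as GGG and TTCC with 3 bases of any kind between them, and interferon response elements (ISRE) as GAAA and GAAA with 2 such bases between them. Both strands were searched, and matches are in capitals. Sequences read 5′ to 3′ on the gene strand.
Cxcl10, chr5:92348840-92349139, minus strand: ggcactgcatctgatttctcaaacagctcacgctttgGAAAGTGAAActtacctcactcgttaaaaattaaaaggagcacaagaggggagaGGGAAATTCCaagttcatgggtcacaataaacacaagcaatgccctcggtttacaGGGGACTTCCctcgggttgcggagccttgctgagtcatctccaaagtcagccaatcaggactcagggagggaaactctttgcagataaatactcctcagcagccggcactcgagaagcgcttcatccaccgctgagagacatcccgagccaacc
Ccl9, chr11:83578587-83578886, minus strand: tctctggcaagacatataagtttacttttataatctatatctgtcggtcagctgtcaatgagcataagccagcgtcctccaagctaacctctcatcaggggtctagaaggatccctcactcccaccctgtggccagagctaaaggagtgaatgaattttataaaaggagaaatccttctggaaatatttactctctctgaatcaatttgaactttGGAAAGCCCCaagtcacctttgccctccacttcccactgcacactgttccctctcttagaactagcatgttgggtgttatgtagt
Ccl6, chr11:83593038-83593337, minus strand: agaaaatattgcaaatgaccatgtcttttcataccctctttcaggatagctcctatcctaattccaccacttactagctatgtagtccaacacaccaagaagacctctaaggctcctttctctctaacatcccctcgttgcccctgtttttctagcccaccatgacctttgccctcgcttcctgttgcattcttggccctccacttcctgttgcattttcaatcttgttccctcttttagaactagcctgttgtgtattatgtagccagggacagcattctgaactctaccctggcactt
The Cxcl10 window held 2 NF-kB matches and 1 ISRE match, the Ccl9 window 1 NF-kB match and the Ccl6 window none. The longest run shared by the Ccl6 and Ccl9 windows was 13 bases. The 26 genes had 32 promoters in the table, as some have more than 1 start. NF-kB matches occurred in 7 of these 32 promoters (of Ccl1, Ccl20, Ccl9, Cxcl1, Cxcl10, Cxcl2 and Cxcl3), against 5.56% of all 32851 promoters. ISRE matches occurred in 3 of the 32 (of Ccl19, Cxcl10 and Cxcl14), against 3.44% of all promoters. Binding was not measured at any of them.

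No chemokine ligand passed the test for genotype in the ileum. Limma on log2(FPKM + 0.5) with Benjamini-Hochberg adjustment over 11574 genes called 0 of the 19 tested ligands at an adjusted p under 0.05, beside 0.0432% of all genes. At an unadjusted p under 0.05 the count was 2 of 19, beside 4.34% of all genes, with Cxcl13 higher and Cxcl14 lower in Gpr35-/-. In no ligand were the genotype groups free of overlap, beside 0.855% of all genes. Of the 19 estimates, 10 lay above 0 and 9 below. Their median of 0.01 matched the 0.01 of all genes.

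**Figure D2:**
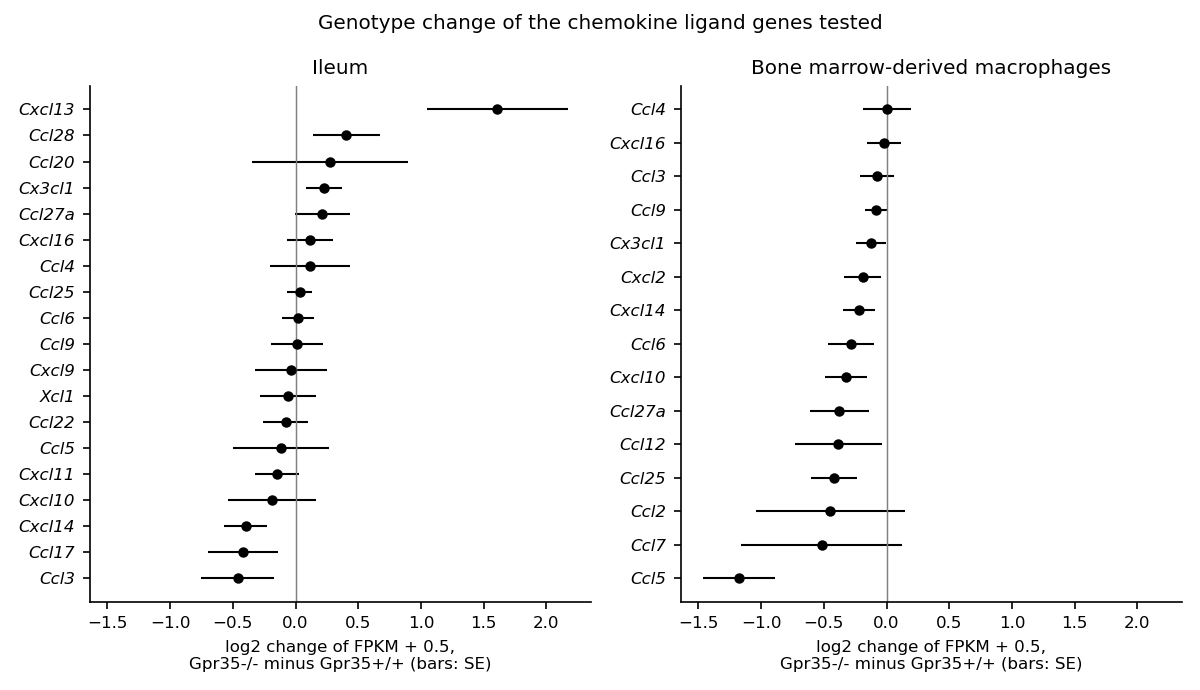
Log2 change of FPKM + 0.5 in Gpr35-/- against Gpr35+/+ for the 19 ligands tested in ileum (left) and the 15 tested in macrophages (right), with bars for the standard error. Ileum estimates scattered around 0 apart from Cxcl13, whereas 14 of 15 macrophage estimates lay below 0; none passed the adjusted threshold.

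Cxcl13, the B cell attractant of lymphoid follicles (chromosome 5, 95956951 to 95961068), had the largest estimate of the 19. It measured 0.539, 6.62, 2.27, 2.71 and 4.25 FPKM in Gpr35+/+ ileum and 13.6, 2.59, 13.1, 9.52 and 13.3 FPKM in Gpr35-/- ileum. Gpr35-/- libraries 1, 3, 4 and 5 exceeded all Gpr35+/+ libraries, while library 2 fell within their range. The log2 change was 1.61 (SE 0.57, unadjusted p = 0.0174, limma adjusted p = 0.999). The means were 3.28 ± 2.29 and 10.4 ± 4.69 FPKM (SD, n = 5 each).

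B cell markers moved with Cxcl13. The 10 markers summed to 25.6, 105.7, 60.0, 30.5 and 46.0 FPKM in Gpr35+/+ and to 79.7, 31.3, 92.5, 98.5 and 95.2 FPKM in Gpr35-/- ileum, and all 10 had estimates above 0 (median 0.59, 0 of 10 with an unadjusted p under 0.05). Across the 10 libraries, log2 Cxcl13 and the log2 marker sum gave r = 0.861 (permutation p = 0.00188, adjusted 0.00282) and rho = 0.685 (p = 0.0353, adjusted 0.0353). The adjustment covered only the 3 relations of a ligand to a marker sum that were computed. These were picked by hand from many possible ones, so it does not account for that choice. Without the 2 libraries farthest from the median marker sum, r was 0.767. Within the genotypes r was 0.79 in Gpr35+/+ and 0.94 in Gpr35-/- over 5 libraries each. The latter rested on Gpr35-/- library 2, the lowest in both measures: among the 4 others the lowest marker sum came with the highest Cxcl13 and the highest sum with the lowest Cxcl13. With the marker sum as a covariate, a setting chosen after the data were seen, the log2 change of Cxcl13 was 0.88 (SE 0.33, adjusted p = 0.597). The adjusted p ranged from 0.143 to 1 over the 22 alternative settings. Cxcl13 per summed marker FPKM was 0.0211 to 0.0923 in Gpr35+/+ and 0.0827 to 0.171 in Gpr35-/-. In tissue of mixed cells, a change in the number of cells of a type and a change in RNA per cell cannot be told apart. The part of B cells in the Cxcl13 difference was not tested further.

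**Figure D3:**
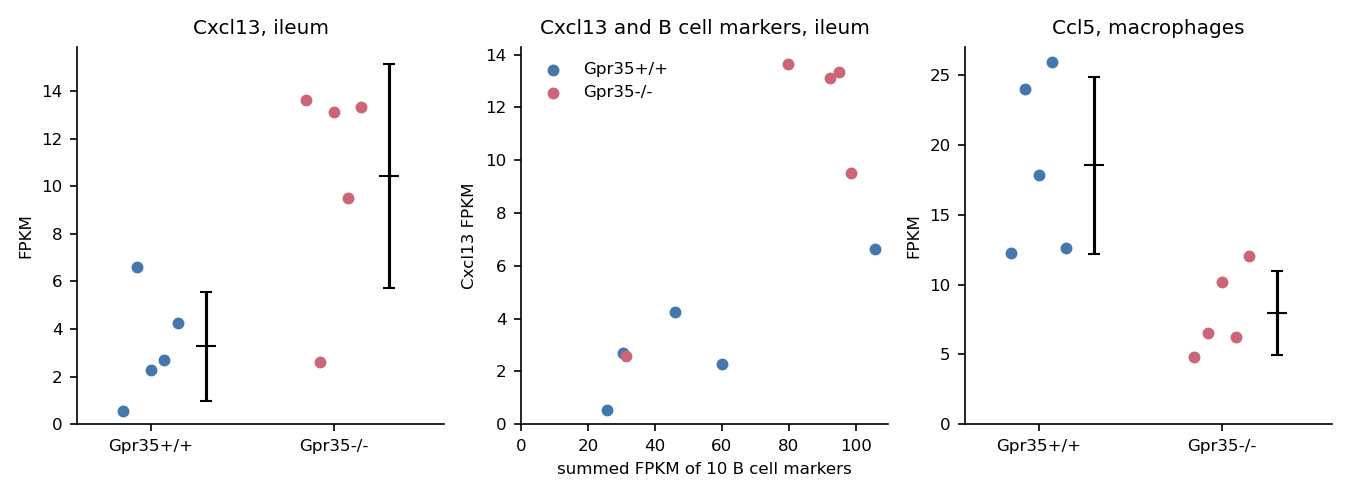
Left, Cxcl13 FPKM in ileum libraries by genotype; middle, Cxcl13 FPKM against the summed FPKM of 10 B cell markers in the same libraries; right, Ccl5 FPKM in macrophage libraries by genotype. Points are libraries, black bars the mean and SD of 5; Gpr35-/- library 2 was low in both Cxcl13 and the marker sum, apart from the 4 other Gpr35-/- libraries, and the Ccl5 groups did not overlap, with 12.3 FPKM as the lowest Gpr35+/+ and 12.1 FPKM as the highest Gpr35-/- value.

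Other ligands of homeostatic trafficking in the ileum were also mostly above 0. Of the 7 tested genes of that group besides Cxcl13, 6 had estimates above 0, with a median of 0.21 beside 54.4% of all genes above 0 and their median of 0.01. Ccl28 had a log2 change of 0.41 (SE 0.27) and Cx3cl1 of 0.23 (SE 0.14), neither with an unadjusted p under 0.05. Cx3cl1 was 74.7, 49.6, 75.1, 47.3 and 50.5 FPKM in Gpr35+/+ and 72.4, 75.2, 62.0, 64.3 and 68.2 FPKM in Gpr35-/- ileum, where the lower values were confined to Gpr35+/+ libraries 2, 4 and 5.

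Cxcl14 was the exception in that group. It measured 0.795, 1.03, 0.335, 1.09 and 0.744 FPKM in Gpr35+/+ and 0.504, 0.376, 0.625, 0.354 and 0.479 FPKM in Gpr35-/- ileum. The log2 change was -0.40 (SE 0.17, unadjusted p = 0.0419, limma adjusted p = 0.999), and Gpr35+/+ library 3 lay below all Gpr35-/- libraries. In macrophages, where Cxcl14 was far higher among the ligands, its log2 change was -0.22 (SE 0.13).

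Several ligands too low for the test in the ileum could be read as whole reads. Ccl19, a follicle T zone ligand named here after its values were seen, measured 0.125, 0.361, 0.117, 0.134 and 0.740 FPKM in Gpr35+/+ and 0.446, 0.148, 1.19, 0.796 and 1.35 FPKM in Gpr35-/- ileum. These values corresponded to 1, 4, 1, 2 and 6 reads and to 9, 2, 17, 10 and 17 reads, in libraries of unequal depth. Like Cxcl13, Ccl19 was low in Gpr35-/- library 2. Cxcl3 came to 1 read, Cxcl5 to 4, Ccl7 to 5 and Ccl1 to 6 reads over all 10 ileum libraries, as the smallest counts that fit. For Cxcl3, above 0 in 1 library, the method gives 1 read whatever the value. Cxcl3, Cxcl5, Ccl7 and Ccl1 had too few reads for a comparison of the genotypes. Ccl19 lay below the filter, and its difference between genotypes was not tested.

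The other ligands outside the test had values under the filter or were listed at 0. In ileum, Cxcl12, the stromal ligand of Cxcr4, ranged from 0.0857 to 0.846 FPKM, Ccl21a from 0.0457 to 0.401 FPKM and the eotaxin Ccl11 from 0 to 0.439 FPKM. Ccl24, another eotaxin, had means of 0.398 ± 0.365 and 0.281 ± 0.146 FPKM (SD, n = 5 each) in Gpr35+/+ and Gpr35-/- ileum, and Ccl8 of 0.250 ± 0.237 and 0.388 ± 0.260 FPKM, so that both differences were within the spread. Ccl2 came to 1 read in Gpr35+/+ and 9 reads in the deeper Gpr35-/- ileum libraries, at most 0.190 FPKM. In macrophages, Ccl1, Ccl11, Ccl19 and Ccl21a were listed at 0 in all 10 libraries, besides the 5 genes at 0 in all 20. As with Lyz2 in the same table, these are listings and set no upper limit. Ccl22, a ligand of Ccr4 that was tested in ileum alone, reached 0.0562 to 0.760 FPKM in macrophages, and Cxcl1, a neutrophil ligand, came to 39 reads in Gpr35+/+ and 30 in Gpr35-/- macrophages. Cxcl11, which GENCODE annotates as a polymorphic pseudogene in this genome, still measured 1.23 to 2.81 FPKM in ileum, with a log2 change of -0.15 (SE 0.17).

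Inflammatory CC ligands had no shared direction in the ileum. Of 7 tested, 3 had estimates above 0 and 4 below (median -0.08), and Xcl1, of the XC family, had an estimate of -0.06. Ccl3 measured 1.10, 1.03, 1.65, 0.532 and 0.760 FPKM in Gpr35+/+ and 1.05, 0.130, 0.927, 0.210 and 0.908 FPKM in Gpr35-/-, where libraries 2 and 4 were low, with a log2 change of -0.46 (SE 0.29). Ccl17, a ligand of Ccr4, had a log2 change of -0.42 (SE 0.28), where Gpr35+/+ library 5 stood at 2.67 FPKM and the 9 others did not exceed 1.05 FPKM.

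Ccl5 and the interferon-inducible ligands Cxcl9 and Cxcl10 varied together between ileum libraries, with overlapping genotypes. Ccl5 measured 126, 222, 229.9, 148 and 72.2 FPKM in Gpr35+/+ and 171, 58.4, 196, 132 and 177 FPKM in Gpr35-/- ileum (log2 change -0.12, SE 0.38). Over the 10 libraries log2 Ccl5 went with log2 Cxcl10 (r = 0.895, permutation p = 2.0e-04, adjusted over 171 pairs 0.0248; rho = 0.915, p = 4.6e-04, adjusted 0.0787) and with Cxcl9 (r = 0.895, p = 2.9e-04, adjusted 0.0248; rho = 0.891, p = 0.00122, adjusted 0.104). Without the 2 libraries farthest from the median of Ccl5 the r values were 0.798 and 0.804, and with each genotype centred on its own mean both were 0.896. Cxcl9 and Cxcl10 are neighbours on chromosome 5, 18559 bases apart, while Ccl5 is on chromosome 11. Cxcl11, the other ligand of this kind, gave r = 0.340 to Ccl5 (permutation p = 0.337, adjusted 0.79; rho = 0.164, p = 0.658, adjusted 0.929), 0.375 to Cxcl10 and 0.167 to Cxcl9. All 3 tested interferon-inducible CXC ligands had estimates below 0, from -0.19 to -0.04.

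T cell markers followed the same libraries. The 10 markers summed to 34.2 to 86.4 FPKM in Gpr35+/+ and 29.2 to 81.5 FPKM in Gpr35-/- ileum. Log2 Ccl5 against the log2 sum gave r = 0.956 (permutation p = 1.4e-04, adjusted 4.2e-04) and rho = 0.927 (p = 3.3e-04, adjusted 9.9e-04). The adjustment covered only the 3 relations picked by hand. Without the 2 libraries farthest from the median sum r was 0.777, and within the genotypes it was 0.951 and 0.982. Ccl5 per summed marker FPKM varied little, from 1.97 to 3.01. The part of T cell content in the spread of Ccl5 was not tested.

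No chemokine ligand passed the adjusted threshold in macrophages either. Limma called 0 of 15 tested ligands, beside 0.0525% of 11437 genes. At an unadjusted p under 0.05 the count was 2 of 15, Ccl5 and Ccl25, both lower in Gpr35-/-, beside 10.5% of all genes in either direction and 5.88% lower. Genotype groups did not overlap in 1 ligand, Ccl5, beside 1.96% of all genes in either direction and 0.918% lower. Of the 15 estimates 14 lay below 0 and their median was -0.28, whereas 48.3% of all genes lay below 0 and their median was 0.00. Without Gpr35-/- libraries 2, 3 and 4, which held little epithelial RNA, the median of the ligands was -0.14, and with the epithelial marker sum as a covariate it was -0.11.

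Ccl5 (chromosome 11, 83525778 to 83530518) measured 12.3, 24.0, 17.8, 26.0 and 12.6 FPKM in Gpr35+/+ and 4.82, 6.54, 10.2, 6.26 and 12.1 FPKM in Gpr35-/- macrophages. Every Gpr35-/- value lay below every Gpr35+/+ value, with 12.3 and 12.1 FPKM as the closest values. The means were 18.5 ± 6.32 and 7.97 ± 3.02 FPKM (SD, n = 5 each), and the log2 change was -1.17 (SE 0.29, unadjusted p = 0.00228, limma adjusted p = 0.259). When libraries were weighted by their variability, the log2 change was -1.36 (SE 0.25) and the adjusted p 0.0422, with 128 of all genes called in place of 6. Over the 23 alternatives the adjusted p ranged from 0.0422 to 0.669 and the estimate from -1.36 to -1.02. It was -1.15 (SE 0.42) without Gpr35-/- libraries 2, 3 and 4. T cell markers summed to 1.78 to 3.35 FPKM in these libraries, with Cd3e at 0 to 0.0615 FPKM.

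Interferon targets had macrophage estimates of the same sign as Ccl5. All 17 genes of that list had estimates below 0 (median -0.20), beside 48.3% of all genes, with 0 past the adjusted threshold and 2 with an unadjusted p under 0.05. Irf7, a transcription factor induced by type I interferon, measured 206, 238, 207, 304 and 238 FPKM in Gpr35+/+ and 86.7, 112, 224, 111 and 244 FPKM in Gpr35-/- macrophages (log2 change -0.73, SE 0.29, unadjusted p = 0.0308, limma adjusted p = 0.421). Gpr35-/- libraries 1, 2 and 4 were low in both Irf7 and Ccl5. Ifi44 had a log2 change of -0.91 (SE 0.32). Cxcl10, another interferon-inducible ligand, measured 3.03, 3.2, 2.62, 3.76 and 5.18 FPKM in Gpr35+/+ and 2.43, 2.08, 2.73, 2.60 and 3.74 FPKM in Gpr35-/- (log2 change -0.32, SE 0.17). In the ileum the 17 targets were split, with 7 above 0 and 10 below.

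Ccl25 in macrophages was low and followed the epithelial markers. It measured 3.66, 2.97, 4.45, 5.47 and 4.70 FPKM in Gpr35+/+ and 4.63, 3.08, 2.72, 2.27 and 2.68 FPKM in Gpr35-/- libraries (log2 change -0.42, SE 0.18, unadjusted p = 0.0423, limma adjusted p = 0.456). Against the log2 epithelial marker sum, log2 Ccl25 gave r = 0.769 (permutation p = 0.0110, adjusted 0.0110) and rho = 0.806 (p = 0.00751, adjusted 0.0113). Here too the adjustment covered only the 3 relations picked by hand. Without the 2 libraries farthest from the median marker sum, r was 0.597. With the epithelial marker sum as a covariate the log2 change was -0.11 (SE 0.20), and without Gpr35-/- libraries 2, 3 and 4 it was -0.21 (SE 0.24). In those 3 libraries, with marker sums of at most 1.53 FPKM, Ccl25 still measured 2.27 to 3.08 FPKM. Ccl25 per summed marker FPKM was 2.01 to 2.78 there, 0.0261 to 0.0604 in the other 7 and 0.0157 to 0.0260 in ileum. The source of the epithelial RNA in these libraries was not tested.

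Some ligands on chromosome 11 varied together between macrophage libraries. Of 105 pairs of tested ligands, 11 had an adjusted permutation p under 0.05 by Pearson's r, 9 positive and 2 negative, and 10 of these also by Spearman's rho. All 11 pairs were formed by genes of chromosome 11, which made up 36 of the 105 pairs. This restriction depends on the cut, as Cx3cl1 of chromosome 8 came close to it. Its r was 0.807 to Ccl12 (adjusted permutation p = 0.057) and 0.788 to Ccl2 (adjusted permutation p = 0.0736). In the ileum, 0 of 15 pairs of chromosome 11 had an adjusted permutation p under 0.05. The 2 tissues are not alike in this, since Ccl2, Ccl7 and Ccl12, part of most of the 11 pairs, were not tested in ileum. The ileum adjustment also ran over 171 pairs. There Ccl6 and Ccl9 gave r = 0.761 and Ccl4 and Ccl5 r = 0.860, both with an adjusted permutation p of 0.162. Without the 2 farthest libraries these were 0.446 and 0.363. The values that follow are for macrophages. Ccl2 and Ccl7, 8259 bases apart, had the highest value, r = 0.990 (permutation p = 1.0e-05, the smallest that 100000 permutations give, adjusted 0.00105; rho = 0.976, p = 2.0e-05, adjusted 0.0021), and r = 0.977 without the 2 libraries farthest from the median of Ccl2.

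Ccl2 measured 91.1, 29.7, 37.8, 26.4 and 71.2 FPKM in Gpr35+/+ and 43.6, 16.9, 23.6, 19.2 and 117.9 FPKM in Gpr35-/- macrophages. Ccl7 measured 38, 10.7, 15.5, 11.9 and 30.8 FPKM and 14.4, 5.92, 9.92, 7.35 and 56.0 FPKM in the same order. Gpr35+/+ libraries 1 and 5 and Gpr35-/- library 5 were the 3 highest for both genes, and the genotypes overlapped (log2 changes -0.45, SE 0.60 and -0.52, SE 0.64). Ccl12, the third Ccr2 ligand of this cluster, had its 3 highest values in Gpr35+/+ library 5 (1.76 FPKM, 17 reads), Gpr35+/+ library 1 (1.21 FPKM, 13 reads) and Gpr35-/- library 5 (1.19 FPKM, 10 reads).

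Ccl4 and Ccl3 lie on the same chromosome as Ccl2, Ccl4 at a distance of 1625131 bases, and varied with it. Ccl2 and Ccl4 gave r = 0.947 (permutation p = 3.0e-05, adjusted 0.00157; rho = 0.927, p = 3.1e-04, adjusted 0.0108), with r = 0.872 without the 2 farthest libraries and 0.979 with each genotype centred on its own mean. Ccl3 and Ccl4, 13229 bases apart, gave r = 0.917 (permutation p = 4.1e-04, adjusted 0.00861; rho = 0.879, p = 0.00139, adjusted 0.0224), and r = 0.836 without the 2 farthest. Ccl4 was highest at 72.5 and 79.3 FPKM in Gpr35+/+ library 1 and Gpr35-/- library 5, as was Ccl3. Gpr35-/- library 1 came next for both genes, with 57.6 FPKM of Ccl4 and 42.2 FPKM of Ccl3, and Gpr35+/+ library 5 followed with 55.4 and 42.0 FPKM.

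Ccl6 and Ccl9 formed a second set that did not follow Ccl2. They gave r = 0.919 with each other (permutation p = 1.8e-04, adjusted 0.0063; rho = 0.927, p = 2.9e-04, adjusted 0.0108), with r = 0.933 without the 2 farthest libraries. Their lowest values, 51.7 FPKM for Ccl6 and 149 FPKM for Ccl9, were both in Gpr35-/- library 1. Cxcl16 ran against Ccl4 and Ccl3, with r = -0.868 to Ccl4 (permutation p = 6.7e-04, adjusted 0.01; rho = -0.915, p = 4.7e-04, adjusted 0.0123) and -0.798 without the 2 farthest. Its r to Ccl3 was -0.845 (permutation p = 0.00196, adjusted 0.0206; rho = -0.842, p = 0.00364, adjusted 0.0382), and -0.585 without the 2 farthest. With Ccl2, Ccl7 and Ccl12 the r values of -0.747, -0.693 and -0.527 had adjusted permutation p values of 0.0854, 0.131 and 0.346. Ccl5, in the same cluster as Ccl9, Ccl6, Ccl3 and Ccl4, had no pair among the 11. All pairs share the libraries and their scaling, and were chosen for description after the values were seen.

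**Figure D4:**
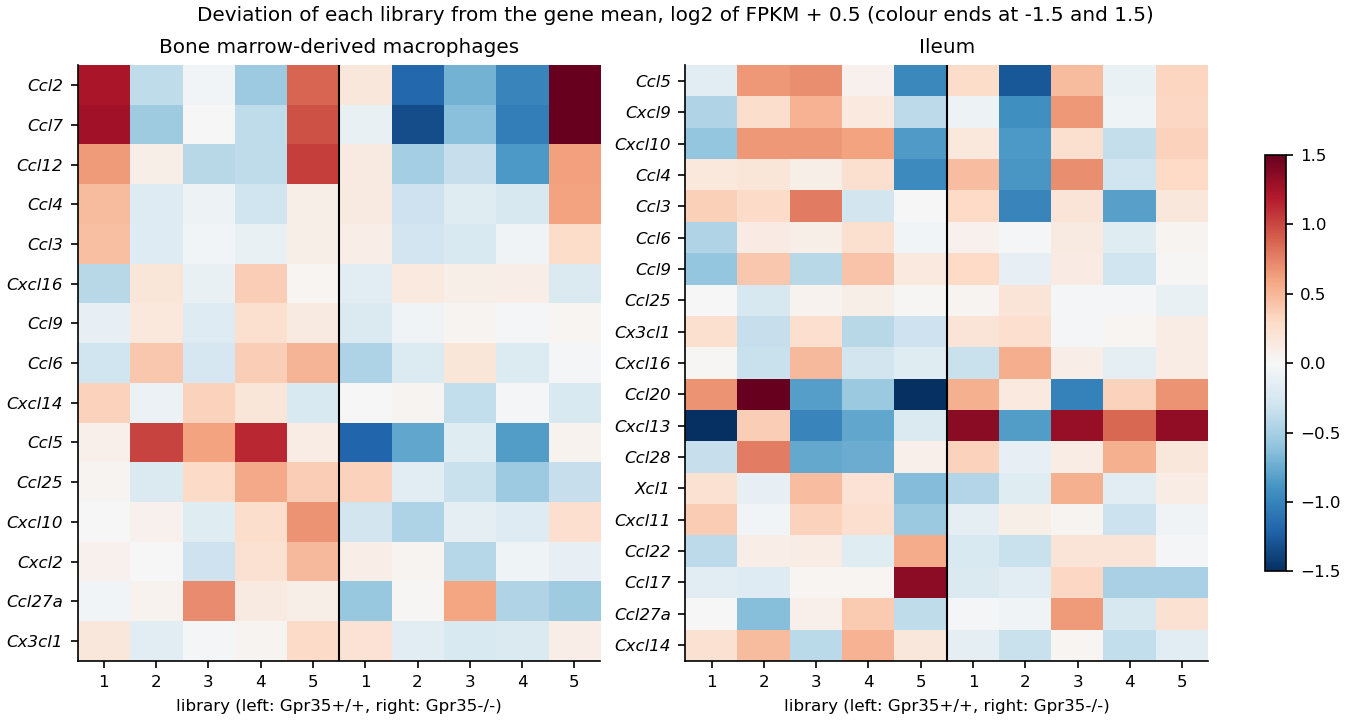
Log2 of FPKM + 0.5 minus the mean of each gene over 10 libraries, for the 15 ligands tested in macrophages (left) and the 19 tested in ileum (right), with the line dividing Gpr35+/+ from Gpr35-/- libraries; colours end at -1.5 and 1.5. In macrophages Ccl2, Ccl7 and Ccl12 were highest in Gpr35+/+ libraries 1 and 5 and Gpr35-/- library 5, Ccl4 and Ccl3 in Gpr35+/+ library 1 and Gpr35-/- library 5, and in ileum Ccl5, Cxcl9, Cxcl10 and Ccl4 were low together in Gpr35+/+ library 5 and Gpr35-/- library 2.

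No NF-kB target passed the adjusted threshold in either tissue. Of 9 tested in macrophages 5 had estimates below 0 (median -0.04) and 0 had an unadjusted p under 0.05. Of 10 tested in ileum 5 lay below 0, and Nfkbiz (log2 change 0.41, SE 0.13) and Il1b (-0.40, SE 0.17) had unadjusted p values of 0.00972 and 0.0378, both with a limma adjusted p of 0.999. Cxcl2, the neutrophil ligand and NF-kB target that was high enough for the test in macrophages, measured 1.82 to 3.52 FPKM in Gpr35+/+ and 1.63 to 2.60 FPKM in Gpr35-/- (log2 change -0.19, SE 0.15). Neutrophil markers were present in these cultures at 573.8 to 1277 FPKM in Gpr35+/+ and 702.9 to 1051 FPKM in Gpr35-/-.

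Several receptors of these ligands were abundant in macrophages. Cxcr4, the receptor of Cxcl12, ranged from 65.3 to 141 FPKM in macrophages, and Ccr2 from 40.6 to 95.1 FPKM. Of 9 tested receptors 8 had macrophage estimates below 0 (median -0.17), and 0 passed the adjusted threshold. Ccr3, a receptor of Ccl5, had a log2 change of -0.43 (SE 0.13, unadjusted p = 0.00653, limma adjusted p = 0.322). Its estimate had the same sign as that of Ccl5, with overlapping groups.

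Receptors in the ileum were low. Cxcr5, the receptor of Cxcl13, ranged from 0.775 to 3.60 FPKM, with a log2 change of 0.59 (SE 0.35). Ccr6, the receptor of Ccl20, had a log2 change of 0.60 (SE 0.37) and Cxcr4 of 0.43 (SE 0.39), and none of 9 tested receptors had an unadjusted p under 0.05. Ccr9, named as the receptor of Ccl25 after its values were seen, ranged from 0.612 to 1.69 FPKM in ileum and reached at most 0.0919 FPKM in macrophages. Cx3cr1, the receptor of Cx3cl1, ranged from 16.5 to 32.4 FPKM in macrophages, where its ligand measured 0.354 to 0.726 FPKM. Atypical receptors, which bind chemokines without signalling to G proteins, were tested in 1 gene per tissue, Ackr4 in ileum (log2 change 0.03, SE 0.17) and Ccrl2 in macrophages (-0.15, SE 0.09).

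The genotype change of the ligands was also compared between the tissues, as the macrophage change minus the ileum change in 1 limma fit of all 20 libraries. Of 23 ligands tested 0 passed the adjusted threshold, beside 0.0384% of 13034 genes, and 2 had an unadjusted p under 0.05, beside 6.48%. The smallest p values belonged to Cxcl13 (difference -1.61, SE 0.59, unadjusted p = 0.0133, limma adjusted p = 0.617), Ccl25 (-0.45, SE 0.20, unadjusted p = 0.0393, limma adjusted p = 0.74) and Ccl5 (-1.06, SE 0.51, unadjusted p = 0.053, limma adjusted p = 0.773). Cxcl13 was listed at 0 in 8 of 10 macrophage libraries. It came to 1 read, the smallest count that fits, in each of the 2 others, so its difference was the ileum change with the sign turned. Weighting of libraries gave it an adjusted p of 0.0389 (difference -1.77, SE 0.34), within a range of 0.0389 to 0.945 over 29 alternatives.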

How the data were processed

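The authors extracted RNA with the RNeasy kit, prepared stranded TruSeq mRNA libraries, sequenced 50-base single-end reads and deposited 1 table of FPKM values per tissue. The genome build in the submitters' processing notes is GRCm38. Aligner, counter and gene annotation: not given in the sources used here. Date-like names (27 rows of the ileum table) were left out, and 99.3% of names matched a mouse symbol. Coordinates are from GENCODE vM21.

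Genes reaching 0.5 FPKM in 5 or more of 10 libraries were tested with limma 3.58.1 (trend, robust) in R 4.3.3 on log2(FPKM + 0.5), within each tissue, with Benjamini-Hochberg adjustment over all genes at 0.05. Fold changes of low genes are understated on this scale. Rows at 0 throughout 1 genotype but with 1 FPKM or more throughout the other were dropped (5 in ileum, 2 in macrophages, no ligand among them). Marker and pair correlations used 100000 permutations (SciPy 1.17.1). Reads were counted as whole where multiples of 1 read deviated by under 0.06. The smallest counts that fit were taken, so they are minima. The fit was tested on simulated data.

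Named genes were Gpr35, Cxcl17, ligands past the threshold, the 8 highest and the 6 with the smallest p per tissue, those with groups that did not overlap, the 3 with the smallest p for the tissue difference, and up to 3 per further list by p or level. Ligands and lists were chosen with earlier results of these data known. The series design gives 5 mice per genotype for each tissue, but the study's own numbers for ileum differ between its legends and libraries are not tied to mice, so p values measure the spread between these libraries, which may be technical in part.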

Additional observations from a re-analysis of the deposited data

Results flagged for a closer look

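In 68 groups of 5 libraries (34 tests of a ligand in a tissue, by genotype), 6 held a library whose gap to the nearest other exceeded 0.71 of the range of the group, the limit at which chance gives about 1 in 20. Ccl2 and Ccl7 in Gpr35-/- macrophages were both flagged by library 5, with 117.9 FPKM against 16.9 to 43.6 for Ccl2 (gap 0.736 of the range) and 56.0 FPKM against 5.92 to 14.4 for Ccl7 (0.830). Ccl27a in Gpr35+/+ macrophages was flagged by library 3, with 1.29 FPKM against 0.567 to 0.706 (0.809). In Gpr35+/+ ileum, library 5 held 2.67 FPKM of Ccl17 against 0.602 to 0.782 (0.913) and 0.837 FPKM of Ccl4 against 2.25 to 2.58 (0.813). Ccl25 in Gpr35+/+ ileum was flagged by library 2, with 649 FPKM against 771 to 817 (0.727).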

How the results depend on the processing

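With library weights, 1 ligand was called in macrophages (Ccl5) and 1 for the difference between tissues (Cxcl13), and under each other setting the counts were 0, as they were for all 23 settings in ileum. Leaving out each library in turn kept all 3 counts at 0. Ligands with an unadjusted p under 0.05 numbered 0 to 4 in ileum, 1 to 4 in macrophages and 1 to 5 for the difference, and genes called of all tested 1 to 33, 3 to 128 and 0 to 37. The macrophage median of -0.28 ranged from -0.33 to -0.08, the latter without a filter, when 29 ligands were fitted, many near 0 FPKM. The ileum median of 0.01 ranged from -0.11 to 0.1 and kept its sign in 18 of 23 settings. Of 738 recomputed values 76 moved beyond the spread or by over 1.5 times and 2 newly passed the threshold, and none of the recomputed estimates of single ligands changed sign; the cause was not tested. Replicate numbers did not pair the libraries in ileum (correlation of same-numbered libraries -0.422 to 0.008). In macrophages the correlations were -0.157 to 0.269. There the Gpr35+/+ and Gpr35-/- libraries numbered 5, with 0.269, were each other's best match, and no other number had a mutual match. With the replicate block, 0 ligands were called in either tissue or for the difference, and those with an unadjusted p under 0.05 numbered 1 in ileum and 4 in macrophages. Depth limits the ligands of a few reads, and values listed at 0 bear on no limit.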
